A study of Mus musculus with 32 samples.

Results

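The 10 genes described here, Zscan4a, Zscan4b, Zscan4c, Zscan4d, Zscan4e, Zscan4f, Tcstv1, Tcstv3, Zfp352 and Tmem92, were taken by symbol from the 55401 genes that each of 5 expression tables listed. All 10 were found in every table. They are genes of the 2-cell-like program, the set of transcripts that mouse embryos make when their own genome is first switched on. The series followed chemical reprogramming, in which small molecules turn mouse embryonic fibroblasts into induced pluripotent stem cells (iPSCs). It asked what CD3254 (CD in the labels), an agonist of the retinoid X receptors, does to that process.

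The main table held 8 RNA-seq libraries in 4 groups of 2. CD iPSC and DMSO iPSC are pluripotent cells made from OG2X129 fibroblasts by chemical (ciPSC) reprogramming with CD or with its solvent DMSO. The titles of the DMSO iPSC libraries read "DMSP" and their genotype label reads DMSO addition. The MEF group are OG2X129 embryonic fibroblasts, whose labels also name ciPSC reprogramming as treatment and "WT shRNA" as genotype. R1 is an established mouse embryonic stem cell line, labelled as coming from mouse blastocyst. The other 4 tables held cells within reprogramming, again 2 libraries a group: CD against DMSO, Rxra overexpression (Rxra OE, the retinoid X receptor alpha gene) against CTR, a hairpin against the RNA exosome subunit Exosc3 (shE3) against shCTR, and CD or DMSO at 0, 4 and 8 h of actinomycin D, which stops transcription. The ciPSC medium named in the labels held VPA, CHIR99021, 616452, Parnate, Forskolin, AM580, EPZ004777 and vitamin C, in the control arms too. The labels do not say whether the 2 libraries of a group came from separate cultures, nor how many clones or passages an iPSC group stands for, so all p-values measure only the spread between these libraries.

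In the mouse embryo the transcription factor Dux opens the 2-cell program, and Dppa2 and Dppa4 act before it. Dux binds MERVL long terminal repeats and the promoters of genes such as the Zscan4 cluster. In cultures of embryonic stem cells a small and changing fraction of cells re-enters this state, so the level in a bulk sample joins the share of cells in the state with the RNA that each of them holds. More or fewer such cells and more or less RNA per cell cannot be told apart in these data. Zscan4 proteins carry a SCAN domain and zinc fingers and are known for lengthening telomeres by recombination.

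The 6 Zscan4 members stand in a cluster with 3 further copies, Zscan4-ps1, Zscan4-ps2 and Zscan4-ps3. These 9 loci span 819.9 kb of mouse chromosome 7, from 10794242 to 11614112 (GRCm38, GENCODE M21), 4 on the plus strand and 5 on the minus strand. Zscan4c lies at 11005745 to 11010547 on the plus strand. The annotation types Zscan4a as an unprocessed pseudogene and the other 5 members as protein coding. Tcstv1 (119893388 to 119894785, minus strand) and Tcstv3 (120316878 to 120318178, plus strand), genes of the 2-cell-stage variable group, lie on chromosome 13. Zfp352, a zinc finger gene, lies on chromosome 4 at 90218820 to 90225702, and Tmem92, which encodes a membrane protein, on chromosome 11 at 94777217 to 94782703.

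Promoters of 5 of the 10 members were listed in the RefSeq table of GRCm38.p6, each reaching from 250 bases before the annotated start to 50 after it. The 4 Zscan4 promoters are shown because the Zscan4 genes had the same order of levels over the groups. Each is printed for 200 bases, lined up on TATAAA, with TATAAA and GATTCAA in capitals. GATTCAA is the opening of GATTCAATC, the core of the site that mouse Dux is known to bind. Positions are chr7:10905022-10905221 (minus strand) for Zscan4b, chr7:11005551-11005750 (plus) for Zscan4c, chr7:11166154-11166353 (minus) for Zscan4d and chr7:11397744-11397943 (plus) for Zscan4f.
Zscan4b: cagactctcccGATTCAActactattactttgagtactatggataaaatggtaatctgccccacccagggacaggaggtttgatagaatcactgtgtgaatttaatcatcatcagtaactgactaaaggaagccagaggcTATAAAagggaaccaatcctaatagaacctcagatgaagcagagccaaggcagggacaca
Zscan4c: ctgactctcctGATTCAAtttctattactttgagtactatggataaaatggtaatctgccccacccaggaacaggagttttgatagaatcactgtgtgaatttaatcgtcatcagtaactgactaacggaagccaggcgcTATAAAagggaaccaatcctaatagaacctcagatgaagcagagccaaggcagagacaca
Zscan4d: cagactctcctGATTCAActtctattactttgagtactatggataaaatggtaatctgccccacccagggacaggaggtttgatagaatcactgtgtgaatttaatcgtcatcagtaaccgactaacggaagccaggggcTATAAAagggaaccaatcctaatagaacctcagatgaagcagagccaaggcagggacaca
Zscan4f: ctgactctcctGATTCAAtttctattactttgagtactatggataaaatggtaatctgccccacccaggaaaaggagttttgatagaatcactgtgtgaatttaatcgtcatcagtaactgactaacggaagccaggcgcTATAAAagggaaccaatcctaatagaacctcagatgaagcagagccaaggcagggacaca

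Of the 200 aligned positions, 187 held the same base in all 4 promoters and 13 did not. Zscan4c and Zscan4f differed at 2 positions, and Zscan4b differed from each of them at 11. GATTCAA began 129 bases before TATAAA in all 4. Searched on both strands, TATAAA occurred in 13.6% and GATTCAA in 2.13% of the 32851 promoters in that table. The 9 letters GATTCAATC were in 0 of the 5 member promoters and in 0.149% of all promoters. These motifs were chosen after the sequences were read, and a match is a run of letters, not a measured binding site.

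The promoter of Zfp352 is shown for contrast, since it shares neither motif. It is printed for 240 bases at chr4:90218570-90218809 on the plus strand, with the letters ACAACAC in capitals.
Zfp352: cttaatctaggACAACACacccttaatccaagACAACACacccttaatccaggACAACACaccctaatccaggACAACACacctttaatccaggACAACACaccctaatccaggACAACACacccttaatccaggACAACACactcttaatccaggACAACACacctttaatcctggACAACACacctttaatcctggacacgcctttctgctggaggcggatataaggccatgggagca

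ACAACAC stood 9 times in the Zfp352 promoter. It occurred at least once, on either strand, in 3.27% of promoters, and 9 or more times in 1 of them.

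The copies resemble each other in their transcripts as well, which bears on how reads can be shared out. Over the longest transcript of Zscan4f, 89.5% of all stretches of 100 bases also occurred in a transcript of another gene. This share was 84.1% for Zscan4e, 78.7% for Zscan4b, 72.8% for Zscan4c, 39.1% for Zscan4a and 29.6% for Zscan4d. For Tcstv3 it was 7.8%, for Tcstv1 4.1%, for Zfp352 0.6% and for Tmem92 0.0%. Neither the labels nor the file headers name the read length or how multi-mapping reads were counted, so the levels of single Zscan4 genes are uncertain, and their sum is given beside them.

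Levels in the main table are TPM, transcript abundances scaled to gene length and to the library total, so levels of different genes can be set side by side. The depth behind them is unknown. The cells followed their labels. The 12 late pluripotency genes summed to between 6637 and 7909 TPM in the CD iPSC, DMSO iPSC and R1 libraries and to 26.5 and 30.5 TPM in MEF. The 10 fibroblast markers summed to 21508 and 20653 TPM in MEF, 328 and 326 in DMSO iPSC, 140 and 125 in CD iPSC and 108 and 115 in R1. Mitochondrial transcripts held 8.87% and 14.0% of TPM in CD iPSC, 17.4% and 16.2% in DMSO iPSC and 13.4% and 11.9% in R1.

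All 6 Zscan4 genes had the same order of levels: highest in DMSO iPSC, then R1, then CD iPSC, and listed at 0 in both MEF libraries. Zscan4c, the copy through which the family is best known in embryonic stem cells, was at 71.6 and 73.6 TPM in DMSO iPSC, 38.5 and 37.5 in R1 and 10.5 and 11.7 in CD iPSC. Zscan4f was at 62.6 and 68.8 TPM in DMSO iPSC, 35.5 and 31.1 in R1 and 9.68 and 11.9 in CD iPSC. In both genes every DMSO iPSC library lay above every R1 library, and every R1 library above every CD iPSC library. With 2 libraries a group, such separation is common. Of the 26975 genes above 0 in any of the 8 libraries, 25.5% had both DMSO iPSC libraries above both CD iPSC libraries. The reverse held in 25.6%. The share of genes with the full order of the groups was not counted, so the order is a description.

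Zscan4d, the copy known from the 2-cell embryo, was at 53.4 and 49.1 TPM in DMSO iPSC, 24.9 and 26.3 in R1 and 5.09 and 6.67 in CD iPSC. Zscan4e was at 46.8 and 53.3 TPM in DMSO iPSC, 23.6 and 24.1 in R1 and 8.02 and 8.24 in CD iPSC. The groups did not overlap in either gene, which is a description as above. Zscan4a, the annotated pseudogene, was at 44.2 and 40.0 TPM in DMSO iPSC, 19.4 and 16.9 in R1 and 5.92 and 4.64 in CD iPSC. Zscan4b was the lowest of the 6 in all 6 pluripotent libraries, at 26.1 and 28.5 TPM in DMSO iPSC, 9.43 and 12.7 in R1 and 3.66 and 3.73 in CD iPSC. Zscan4c was the highest in 5 of those libraries, and Zscan4f in the other, CD iPSC replicate 2.

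**Figure D1:**
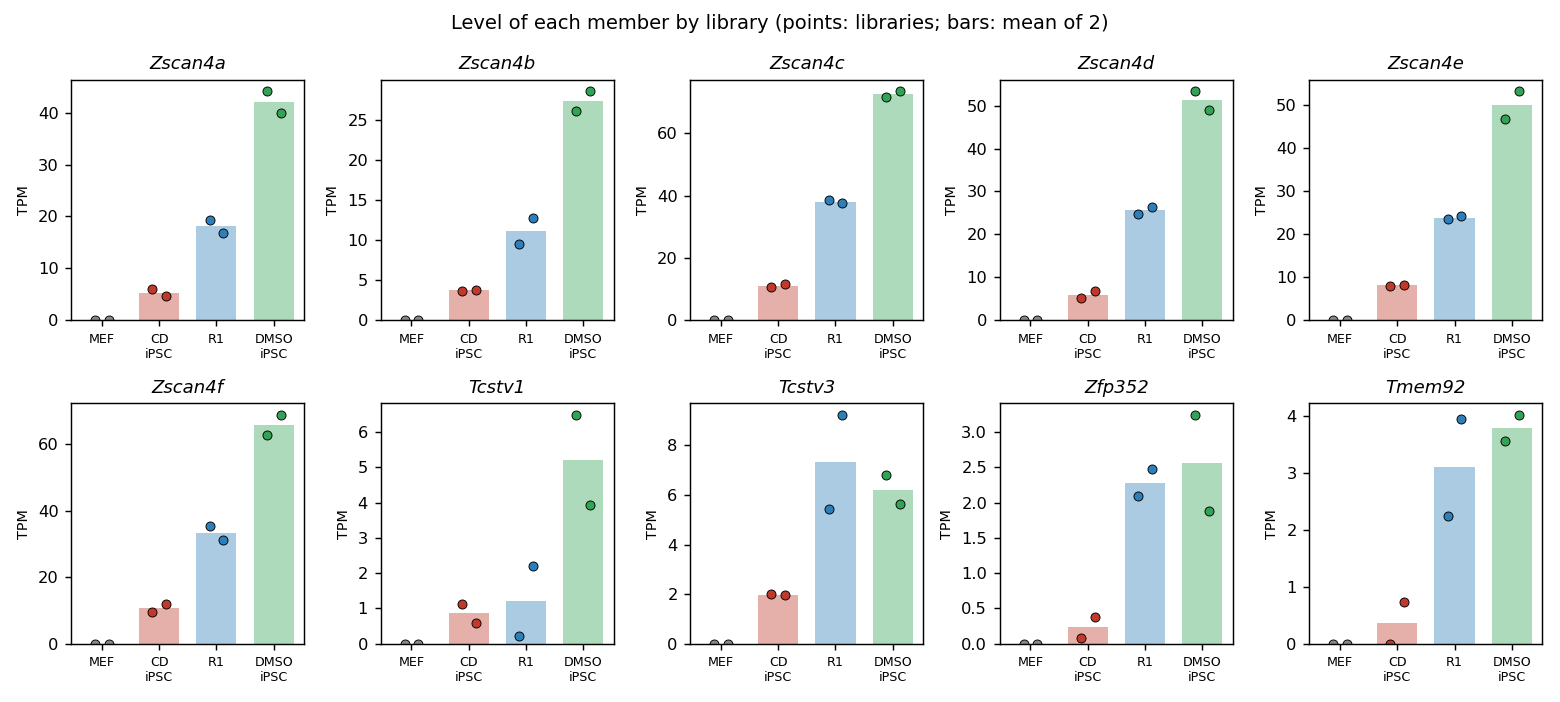
TPM of the 10 members in each library of the main table; points are libraries and bars the mean of 2, with a separate vertical scale in each panel. For the 6 Zscan4 genes the DMSO iPSC points lie above R1 and the R1 points above CD iPSC, and MEF is at 0 throughout.

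The 6 Zscan4 genes together reached 304.8 and 313.4 TPM in DMSO iPSC, 151.3 and 148.6 in R1 and 42.8 and 46.9 in CD iPSC. The mean sum in DMSO iPSC was 6.89 times that in CD iPSC and 2.06 times that in R1, and R1 stood 3.34 times above CD iPSC. Adding Zscan4-ps1, Zscan4-ps2 and Zscan4-ps3, which takes in reads that may have been shared out between copies, gave ratios of 6.83, 2.06 and 3.31. Relative to the typical gene, with libraries rescaled to a common median ratio, R1 stood 3.06 times above CD iPSC and DMSO iPSC 2.35 times above R1.

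The make-up of this sum moved far less than its level. How reads common to several copies were divided is not known, so these shares are as uncertain as the levels of single copies. Zscan4c supplied between 23.5% and 25.5% of it in the 6 libraries and Zscan4f between 20.5% and 25.3%. The shares of Zscan4a ran from 9.90% to 14.5%, of Zscan4d from 11.9% to 17.7%, of Zscan4e from 15.4% to 18.7% and of Zscan4b from 6.23% to 9.11%. The lowest share of Zscan4d was in CD iPSC replicate 1 and the lowest share of Zscan4a in CD iPSC replicate 2.

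**Figure D2:**
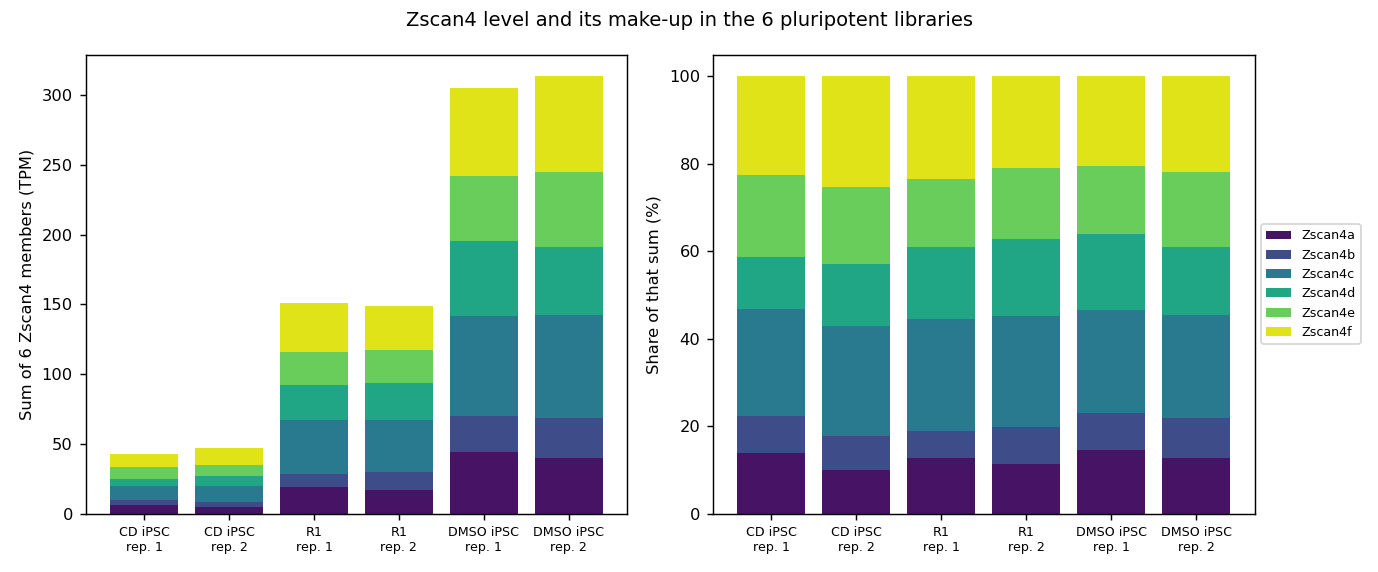
Left, summed TPM of the 6 Zscan4 members in each pluripotent library, stacked by gene; right, each gene's share of that sum in percent. The sum runs from 42.8 TPM in CD iPSC to 313.4 TPM in DMSO iPSC, while Zscan4c keeps a share between 23.5% and 25.5%.

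The other 4 members were expressed at lower levels and with more spread. Tcstv3 was at 6.79 and 5.64 TPM in DMSO iPSC, 5.42 and 9.23 in R1 and 1.99 and 1.96 in CD iPSC. Tcstv1 was at 6.49 and 3.93 TPM in DMSO iPSC, 0.216 and 2.20 in R1 and 1.14 and 0.598 in CD iPSC. For Tcstv3 the DMSO iPSC and R1 libraries overlapped, and for Tcstv1 the R1 libraries lay on both sides of CD iPSC.

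Zfp352 was at 3.24 and 1.88 TPM in DMSO iPSC, 2.09 and 2.48 in R1 and 0.0842 and 0.378 in CD iPSC. Tmem92 was at 3.56 and 4.01 TPM in DMSO iPSC, 2.24 and 3.95 in R1, and listed at 0 and 0.735 in CD iPSC. In both genes the DMSO iPSC and R1 libraries overlapped and the CD iPSC libraries lay below them. Both MEF libraries listed these 4 genes at 0.

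CD iPSC against DMSO iPSC compares pluripotent cells derived with and without CD. All 10 members were lower in CD iPSC. The test was limma on log2(TPM + 1) over the 17414 genes with at least 1 TPM in at least 2 of the 8 libraries, with Benjamini-Hochberg adjustment over all of them. A call is an adjusted p under 0.05, and changes are differences of mean log2(TPM + 1), which understate the change of low genes. Of all genes tested, 18.5% were called lower and 20.0% higher, and all 10 members were called lower. A gene that is low in CD iPSC could pass the filter only through groups in which it is high, so for the low members the count is a description.

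The 6 Zscan4 genes changed by between -2.93 and -2.48, with adjusted p (limma) of at most 0.00023, against a median of 0 over all genes tested. Zscan4d had the largest change, -2.93 ± 0.16 (SE, 2 libraries against 2), a ratio of means of 8.72 in TPM. Zscan4c changed by -2.61 ± 0.13, with a ratio of means of 6.54 and an adjusted p (limma) of 0.000125. Ranked from the lowest change, the 6 stood between places 44 and 107 of the 17414 genes.

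The other 4 members changed by between -1.86 and -1.27. Tmem92 changed by -1.86 ± 0.31 (adjusted p = 0.00402, limma) and Zfp352 by -1.52 ± 0.24 (adjusted p = 0.00315). Tcstv3 changed by -1.27 ± 0.25 (adjusted p = 0.00705). Tcstv1 changed by -1.72 ± 0.45 (adjusted p = 0.0213), a call that was lost under 7 of its 14 alternatives, with adjusted p up to 0.123, 5 of which each left out 1 library: CD iPSC replicate 2 (0.0976), DMSO iPSC replicate 1 (0.123) or 2 (0.0538), or MEF replicate 1 or 2 (0.0694 each). Both MEF libraries list the members at 0 and so add no spread to the pooled estimate. With them left out, an alternative added after seeing the data, all 10 calls held, with adjusted p of at most 0.000656 for the Zscan4 genes and 0.0335 for Tcstv1.

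The summed fibroblast markers and the mitochondrial share given above were also lower in CD iPSC than in DMSO iPSC, and 8 of the 10 fibroblast markers were called lower in CD iPSC. The collagen genes Col1a1, Col1a2 and Col3a1 and the matrix gene Postn, the 4 with the highest mean level, changed by -1.22 ± 0.13, -1.19 ± 0.08, -1.52 ± 0.12 and -0.85 ± 0.15, each called; Lum and Dcn were the 2 markers not called. The part of these differences in the result was not tested. Primitive endoderm markers summed to 46.8 and 41.2 TPM in CD iPSC against 53.3 and 56.5 in DMSO iPSC, and trophoblast markers to 57.5 and 49.0 against 43.4 and 45.7. Of their 4 highest genes each, Col4a1 (-0.49 ± 0.11), Gata3 (-1.34 ± 0.23) and Ascl2 (1.35 ± 0.20) were called, and Pdgfra, Dab2, Lama1, Tfap2c and Eomes were not.

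CD iPSC against R1 sets the CD-derived cells beside embryonic stem cells that never were fibroblasts. This comparison shares its CD iPSC libraries with the one above. Of all genes tested 16.3% were called lower and 7.44% higher. Of the members 9 were called lower in CD iPSC and Tcstv1 was not called, at -0.09 ± 0.45 (adjusted p = 0.925, limma). The 6 Zscan4 genes changed by between -1.96 and -1.35 with adjusted p of at most 0.0038, against a median of -0.09 over all genes. Zscan4c changed by -1.69 ± 0.13 and Zscan4d by -1.96 ± 0.16. Tcstv3 changed by -1.44 ± 0.25, Zfp352 by -1.42 ± 0.24 and Tmem92 by -1.60 ± 0.31. Zfp352 and Tmem92 lay under 1 TPM in both CD iPSC libraries. They passed the filter only through groups in which they are high, so their calls are a description here too. The calls of Zfp352 and Tmem92 were lost without R1 replicate 2 (adjusted p = 0.0521 and 0.0759, limma). After median-ratio scaling the 6 Zscan4 genes changed by between -1.84 and -1.24.

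DMSO iPSC against R1 compares the control iPSCs with embryonic stem cells. It shares libraries with both comparisons above. The 6 Zscan4 genes were higher in DMSO iPSC, by between 0.92 and 1.24 with adjusted p of at most 0.00947 (limma). Zscan4b had the largest change, 1.24 ± 0.18, and Zscan4c the smallest, 0.92 ± 0.13. Median-ratio scaling moved the median of all genes from -0.13 to 0.01, and on that scale the 6 genes were higher by between 1.10 and 1.42. Fibroblast markers moved in the same direction: 8 of the 10 were called higher in DMSO iPSC than in R1 and 0 lower, with a median of 1.35, or 1.52 after median-ratio scaling. Their part in the result was not tested.

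Of the 10 members 7 were called higher in DMSO iPSC than in R1, with 6.32% of all genes called higher and 14.7% lower. Among all calls 30.0% were higher as deposited and 56.1% after median-ratio scaling; for CD iPSC against R1 these shares were 31.3% and 45.4%. The seventh member was Tcstv1, at 1.62 ± 0.45 (adjusted p = 0.0432), whose call was lost under 11 of 14 alternatives, among them 7 of the 8 fits that left out 1 library (all but R1 replicate 2) and the fit with both MEF libraries left out (adjusted p = 0.0631). The call of Zscan4d was lost without any 1 of the 4 libraries compared, with adjusted p between 0.056 and 0.0646. That of Zscan4f was lost without R1 replicate 2 or DMSO iPSC replicate 2 (adjusted p of 0.0679 in the latter). Without DMSO iPSC replicate 2 only 3 members were called, Zscan4a, Zscan4c and Zscan4e. Zfp352, Tcstv3 and Tmem92 were not called, at 0.09 ± 0.24, -0.17 ± 0.25 and 0.26 ± 0.31. With intervals this wide, equal levels of these genes in DMSO iPSC and R1 were not shown.

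**Figure D3:**
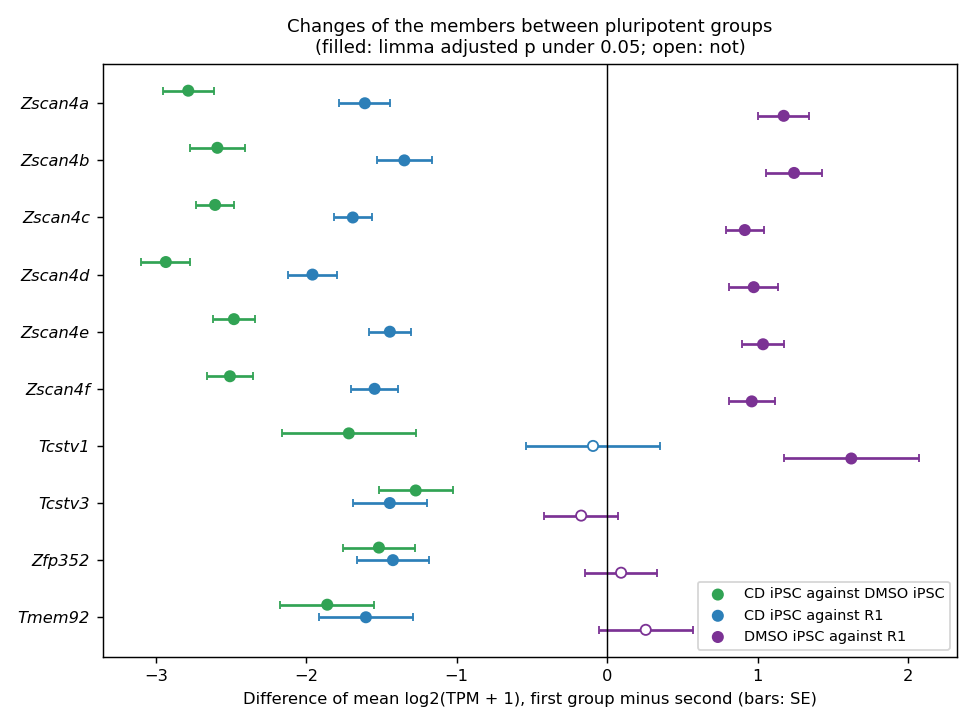
Differences of mean log2(TPM + 1) for the 10 members in 3 comparisons, with SE bars; filled points passed an adjusted p of 0.05 (limma). All 10 members are filled left of 0 for CD iPSC against DMSO iPSC, 9 for CD iPSC against R1, and 7 right of 0 for DMSO iPSC against R1.

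Against the fibroblasts, all 10 members were listed at 0 in both MEF libraries, so no fold change is given. Genes that every cell uses were well above 0 in all 8 libraries: Gapdh, a glycolytic enzyme, lay between 177 and 474 TPM. Each member passed the filter only through the pluripotent libraries, so calls against MEF were largely fixed by the filter, and the counts are a description with nothing read from them. All 10 members were called higher in DMSO iPSC than in MEF, 9 in R1 and 7 in CD iPSC. Of all genes tested 31.4%, 36.2% and 33.3% were called higher in these comparisons, which share the MEF libraries. The members not called were Tcstv1, Zfp352 and Tmem92 in CD iPSC and Tcstv1 in R1.

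Other genes of the 2-cell-like program, a list of 50, were lower in CD iPSC along with the members. Of the 50, 46 were above 0 in any of the 8 libraries and 4 in none. Both DMSO iPSC libraries lay above both CD iPSC libraries in 39 of the 46 and the reverse held in 0; over all 26975 genes above 0 in any library these shares were 25.5% and 25.6%. Of the 32 that passed the filter, 27 were called lower in CD iPSC than in DMSO iPSC and 0 higher, with a median change of -1.81. Beside the 18.5% of all genes called lower, this count is a description. Some of these genes, such as Usp17la at 0.938 and 0.668 TPM in CD iPSC, could pass the filter only through libraries in which they are high. Others, such as Gm5662 at 7.67 and 8.51 TPM there, reached the filter level in CD iPSC too. Both MEF libraries listed 48 of the 50 at 0.

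The 4 with the highest mean level differed in how R1 placed itself. Gm5662 was at 35.0 and 33.3 TPM in DMSO iPSC, 19.4 and 19.1 in R1 and 7.67 and 8.51 in CD iPSC. Zscan4-ps2 was at 44.1 and 41.0 TPM in DMSO iPSC, 24.9 and 19.4 in R1 and 5.41 and 7.21 in CD iPSC. Both had the order of the Zscan4 members. Gm4340 was at 43.0 and 52.5 TPM in DMSO iPSC, 49.7 and 53.9 in R1 and 11.9 and 7.95 in CD iPSC. Gm6763 was at 28.2 and 29.6 TPM in DMSO iPSC, 27.2 and 37.3 in R1 and 5.87 and 4.97 in CD iPSC. For these 2 genes the DMSO iPSC and R1 libraries overlapped and the change between them was not called (adjusted p = 0.713 and 0.644, limma).

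Gene families within the list, named here after their values were seen, moved as follows. The 5 Usp17l genes, which encode deubiquitinating enzymes, were all called lower in CD iPSC than in DMSO iPSC, by between -2.68 and -1.30. Zscan4-ps1, Zscan4-ps2 and Zscan4-ps3 were called lower too, by between -2.59 and -2.32. Of the 5 Tdpoz genes 3 passed the filter and 2 were called lower. Each Usp17l and Tdpoz gene lay under 1 TPM in at least 1 CD iPSC library, so none passed the filter through CD iPSC alone. These family counts are a description, beside 18.5% of all genes tested called lower. Obox6, a homeobox gene, was not called, at 0.19 ± 0.21 (adjusted p = 0.532, limma), with 6.98 and 7.37 TPM in CD iPSC and 7.56 and 5.02 in DMSO iPSC. In DMSO iPSC against R1, 12 of the 32 tested genes were called higher and 1 lower, with a median of 0.65, beside 6.32% and 14.7% of all genes. After median-ratio scaling 33 were tested, of which 16 were higher and 0 lower, with a median of 0.84.

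**Figure D4:**
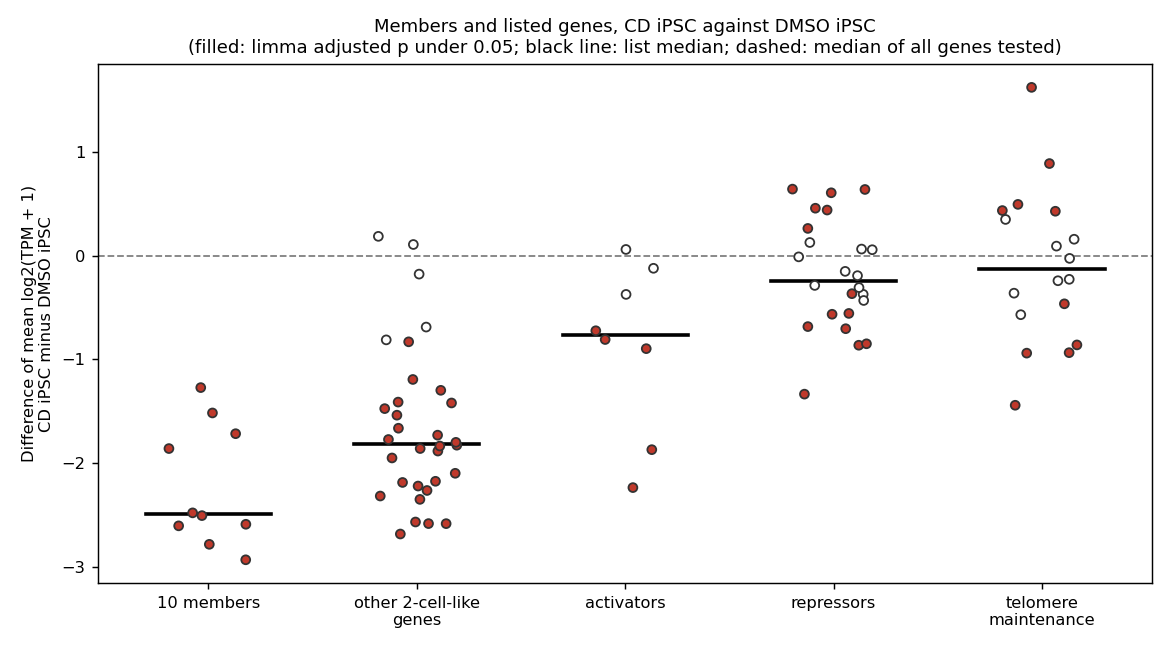
Difference of mean log2(TPM + 1), CD iPSC minus DMSO iPSC, for each tested gene of 5 lists; filled points passed an adjusted p of 0.05 (limma), black lines are list medians and the dashed line is the median of all genes tested. The members have a median of -2.49 and the other 2-cell-like genes of -1.81, while repressors and telomere genes spread to both sides of 0.

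Among 9 genes known to activate the program, 8 passed the filter and 5 were called lower in CD iPSC than in DMSO iPSC, with 0 higher and a median of -0.77. Of all genes tested 18.5% were called lower and 20.0% higher. Dppa2, which acts before Dux, was at 160 and 163 TPM in DMSO iPSC, 150 and 132 in R1 and 29.0 and 38.6 in CD iPSC, a change of -2.24 ± 0.15 between the iPSC groups (adjusted p = 0.000195, limma). Its partner Dppa4 was at 130 and 128 TPM in DMSO iPSC, 139 and 138 in R1 and 74.2 and 72.5 in CD iPSC, a change of -0.81 ± 0.09 (adjusted p = 0.00106). Unlike the Zscan4 genes, neither was called between DMSO iPSC and R1, at 0.20 ± 0.15 and -0.10 ± 0.09 (adjusted p = 0.385 and 0.503, limma); after median-ratio scaling Dppa4 stood at 0.09. Whether their changes differ from those of the Zscan4 genes was not tested.

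Kdm5b, a histone H3K4 demethylase, changed by -0.72 ± 0.17 in CD iPSC against DMSO iPSC (adjusted p = 0.0155, limma). Nelfa, a subunit of the negative elongation factor, was not called, at -0.12 ± 0.15 (adjusted p = 0.578). Zscan10 and Tet2, named after their values were seen like Duxf3 and Dppa3, were the other 2 called lower. Duxf3, the annotated Dux gene, stayed under 1 TPM in all 8 libraries and was not tested: it was listed at 0.0694 and 0 in CD iPSC, 0.729 and 0.908 in DMSO iPSC and 0.965 and 0.273 in R1. In CD iPSC against R1, 7 of the 8 tested activators were called lower and 1 higher, beside 16.3% and 7.44% of all genes. The higher one was Dppa3, a maternal factor, at 2.98 ± 0.27. After median-ratio scaling 4 were called lower. Dppa3 was also higher in DMSO iPSC than in R1, by 2.92 ± 0.27 (adjusted p = 0.00166, limma), and was not called between the iPSC groups.

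**Figure D5:**
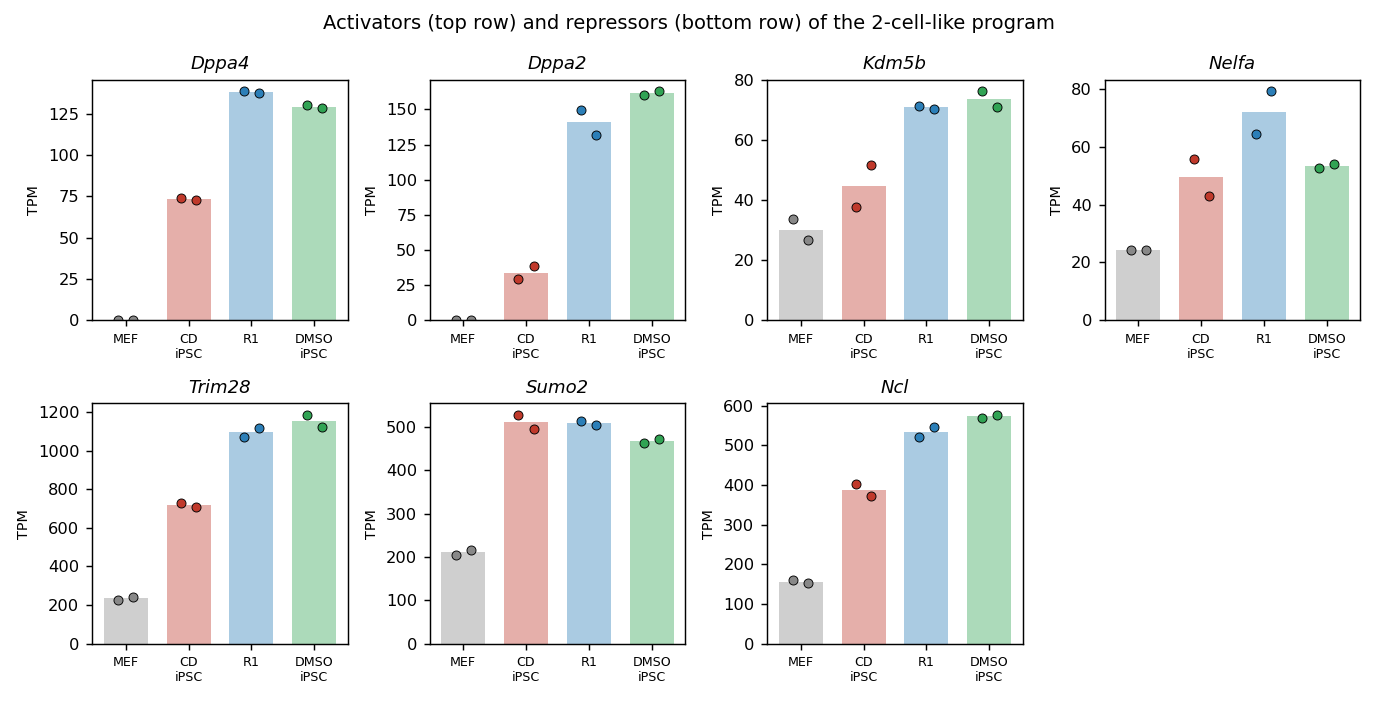
TPM of the 4 activators (top) and 3 repressors (bottom) with the highest mean level, by library; points are libraries, bars the mean of 2, with separate vertical scales that start at 0. Dppa2 lies at 29.0 and 38.6 TPM in CD iPSC and between 132 and 163 TPM in R1 and DMSO iPSC.

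The 24 genes known to repress the program went both ways between the iPSC groups, with more of them called lower than higher. Between CD iPSC and DMSO iPSC 6 were called higher and 8 lower, with a median of -0.24. Of all genes tested 20.0% were called higher and 18.5% lower. After median-ratio scaling 3 repressors were higher and 10 lower, beside 3128 and 3608 of all 17384 genes. Trim28, the co-repressor that silences endogenous retroviruses, was at 729 and 706 TPM in CD iPSC and 1185 and 1122 in DMSO iPSC, a change of -0.68 ± 0.09 (adjusted p = 0.00187, limma). Ncl (nucleolin), which works with Trim28 in repressing Dux, changed by -0.56 ± 0.09. Sumo2 was not called, at 0.13 ± 0.09 (adjusted p = 0.29). In CD iPSC against R1, 7 were called lower and 0 higher, beside 16.3% and 7.44% of all genes. After median-ratio scaling 5 were lower and 0 higher there, beside 2167 and 1801 of all 17384 genes.

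Telomere maintenance and recombination genes, the process Zscan4 is known for, also went both ways. Of 19 listed, 18 passed the filter, and between CD iPSC and DMSO iPSC 5 were called higher and 5 lower, with a median of -0.13. Of all genes tested 20.0% were called higher and 18.5% lower, so little is read from these counts. After median-ratio scaling 4 were higher and 7 lower, beside 3128 and 3608 of all 17384 genes. Dkc1, the dyskerin subunit of telomerase, was at 315 and 293 TPM in CD iPSC and 221 and 227 in DMSO iPSC (0.44 ± 0.09, adjusted p = 0.0108, limma). Nhp2, its partner, was at 179 and 78.0 TPM in CD iPSC and 319 and 328 in DMSO iPSC (-1.44 ± 0.33, adjusted p = 0.0132). The CD iPSC libraries were far apart for Nhp2. Nop10 and Terf1 were not called, at -0.24 ± 0.22 and 0.09 ± 0.15. Dmc1, a meiotic recombinase named after its value was seen, had the largest rise of the list, 1.62 ± 0.17 (adjusted p = 0.000789).

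The late pluripotency genes were more often lower than higher in CD iPSC, but not uniformly lower. Of 12, 3 were called higher than in DMSO iPSC and 8 lower, with a median of -0.46. Of all genes tested 20.0% were called higher and 18.5% lower. After median-ratio scaling 2 were higher and 8 lower, with a median of -0.52. Klf2 and Zfp42, named after their values were seen, had the lowest changes of the list, -2.08 ± 0.18 and -1.91 ± 0.09. Pou5f1, the core pluripotency factor Oct4, was at 1532 and 1138 TPM in CD iPSC and 1275 and 1446 in DMSO iPSC, and was not called (-0.04 ± 0.15, adjusted p = 0.873, limma). Nanog changed by -0.75 ± 0.13 (adjusted p = 0.00434), while Dppa5a and Tdgf1 were each higher in CD iPSC by 0.56.

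The 5 genes outside the members whose log2(TPM + 1) followed Zscan4c most closely over the 6 pluripotent libraries were Gm10244, Zbtb2, Dusp6, Noc3l and Gm5662. Their Pearson r ran from 0.9973 to 0.9986 among 14813 genes with a mean of at least 1 TPM. With 6 libraries in 3 groups, such an r mostly says that a gene has the order and spacing of the 3 group means. Dusp6, a phosphatase of ERK kinases, was at 34.8 and 36.6 TPM in DMSO iPSC, 18.84 and 20.95 in R1 and 5.17 and 5.52 in CD iPSC. Noc3l, a ribosome assembly factor, was at 50.3 and 51.2 TPM in DMSO iPSC, 40.6 and 38.9 in R1 and 26.7 and 26.5 in CD iPSC. Over all 8 libraries Zbtb2 and Dusp6 fell to r = 0.03 and -0.07, and only Gm5662 was among the 5 most alike on both counts. Of the members, the other Zscan4 genes had r between 0.9816 and 0.9979 over the 6 libraries, and Tmem92, Zfp352, Tcstv3 and Tcstv1 had 0.9267, 0.9216, 0.8476 and 0.6796.

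In the cells within reprogramming the members were at or near 0. In CD against DMSO 2 of 40 values were above 0, both of Zfp352, at 0.0372 TPM in DMSO replicate 1 and 0.0343 in CD replicate 1. In Rxra OE against CTR the one value above 0 was Tcstv1 in CTR replicate 1, at 0.0173 TPM. In shE3 against shCTR they were Tcstv1 at 0.124 TPM in shE3 replicate 1 and Tcstv3 at 0.148 in shE3 replicate 2. No member passed the filter in these tables, so none was tested, and a difference between the groups was not detectable at these levels. Mitochondrial transcripts held between 52.9% and 57.1% of TPM in the CD and DMSO libraries. They held between 50.9% and 62.0% in Rxra OE and CTR and between 11.8% and 15.5% in shE3 and shCTR. A large mitochondrial share lowers the TPM of all other genes, and the depth of these libraries is unknown, so values of 0 are less firm.

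The actinomycin D table allowed the reads behind its values to be recovered. Its 12 libraries held between 15382821 and 24186485 reads. The 6 Zscan4 members had 0 reads in all of them, among 216145493 reads on genes. A library's count of 0 allows up to 3 reads, or between 0.124 and 0.195 CPM (counts scaled to the library total), for counting error only. Tmem92 had 6 reads in all, 3 of them in CD 0 h replicate 1, and the other 3 non-Zscan4 members had 0. Without knowing how multi-mapping reads were treated in this table, a count of 0 for the near-identical Zscan4 copies is less firm than for the others. MERVL-int, the internal part of the retrovirus whose repeats Dux binds, was counted at 44.2 and 40.2 CPM in CD and 41.6 and 41.9 in DMSO at 0 h. At 4 h it was at 26.2 and 25.8 CPM in CD and 26.9 and 27.1 in DMSO, and at 8 h at 35.1 and 35.7 against 28.0 and 35.4. For MERVL-int, CD and DMSO overlapped at 0 and 8 h, and at 4 h both CD libraries lay below both DMSO libraries. MT2_Mm, another MERVL family counted, was at 20.0 and 17.6 CPM in CD and 17.1 and 16.1 in DMSO at 0 h. There both CD libraries lay above both DMSO libraries. At 4 h they lay below, at 9.80 and 9.27 CPM against 11.5 and 10.1, and at 8 h the groups overlapped. How often other features of this table separate in this way was not counted, so these orders are a description. No test was made of these values. Dppa2 and Dppa4 were listed at 0 in every library of the CD, Rxra OE and shE3 tables and their controls, and Duxf3 at 0.0492 TPM or less. Of the 50 other 2-cell-like genes, those that reached 1 TPM in 2 libraries of these tables were Ddit4l, in all 3 of them, and Arg2, in 2 of them.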

How the data were processed

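RNA-seq was deposited as 5 tables for 32 libraries in 16 groups of 2. Per the submitters' processing notes, fastp 0.20.1, HISAT2 2.1.0 and StringTie 2.0 were used with mm10; their roles and the annotation are not stated there. In 4 tables the authors deposited TPM per gene, which keeps no depth. The deposited signal values of the actinomycin D table are reads scaled to the library total (CPM): between 99.9879% and 99.9983% of values in each library came out as whole reads within 0.001.

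Genes were named by Ensembl ID, without version, from GENCODE M21 (55141 of 55401 named). The main table was fitted once over its 8 libraries with limma 3.58.1 (trended empirical Bayes, no block) on log2(TPM + 1), for genes at 1 TPM or more in 2 libraries. No member passed this filter in the other tables. There, CD 0 h against DMSO 0 h called 2495 of 17064 genes with limma and 2816 of 18827 with edgeR 4.0.16 (quasi-likelihood, on recovered reads), no member being tested by either. The limma fit was also run on simulated data, with changes planted only in genes of higher mean level. That run did not cover the low members, and nothing is read from it here.

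Genes named are all 10 members, the 5 genes most like Zscan4c, and the 4 of each list with the highest mean TPM, with others marked; 1 of the repressors is not reported here. The members and lists were chosen with earlier results of these data known. Alternatives were another pseudocount and 2 other filters, median-ratio scaling, a replicate block, leaving out each library, and fitting only the groups compared. Sequences are RefSeq's, read from the GRCm38.p6 table. Shared transcript stretches were counted over all GENCODE M21 transcripts. Samples were grouped by title, and no batch is labelled. R 4.3.3 and Python 3.11.15 were used.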

Additional observations from a re-analysis of the deposited data

How the results depend on the processing

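Of 848 values of single members under an alternative, 809 kept their direction and their side of the threshold, 27 lost the call, 6 gained it and 6 changed sign, all 6 of changes called neither before nor after. Tcstv1 in CD iPSC against R1 turned to 0.12 with a pseudocount of 0.1, and ranged from -0.79 to 0.60 leaving out 1 library at a time. In DMSO iPSC against R1 that range was -0.51 to 0.16 for Tcstv3, -0.19 to 0.37 for Zfp352 and -0.049 to 0.56 for Tmem92. Leaving out 1 library at a time, members called lower numbered between 9 and 10 in CD iPSC against DMSO iPSC and between 7 and 9 in CD iPSC against R1, and members called higher between 3 and 6 in DMSO iPSC against R1. Genes called in those comparisons (6704, 4134 and 3668) then ranged from 4021 to 6511, from 1505 to 3788 and from 922 to 4540 with fewer libraries. Counts fell by over 1.5 times without either DMSO iPSC replicate in the first, either R1 replicate in the second and any of these 4 in the third. With only the 2 groups compared, 2343 genes were called in CD iPSC against R1. With median-ratio scaling the ratio of summed Zscan4 TPM was 3.06 for R1 to CD iPSC and 2.35 for DMSO iPSC to R1. A filter of 5 TPM left Tcstv1, Zfp352 and Tmem92 untested.

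Fits with the replicate number as a block (replicate block) called 10, 9 and 6 members in these 3 comparisons, against 10, 9 and 7 without it; the call lost was Tcstv1 in DMSO iPSC against R1 (adjusted p = 0.069, limma). Genes called with the block were 6124, 3302 and 2729. Differences between replicates 2 and 1 correlated between -0.125 and 0.059 across groups. The labels do not say whether equal numbers share a culture or day, and these correlations cannot decide it. CD iPSC replicate differences correlated with those of R1 at -0.125, of MEF at -0.082 and of DMSO iPSC at -0.065. Depth is unknown in the TPM tables, which limits what can be said of the low members, and 2 libraries a group limit all of them. No paired value changed another member's call among the pluripotent groups.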
